A study of Ramazzottius varieornatus with 48 samples.

Results

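The transcript g422.t1 of the tardigrade Ramazzottius varieornatus has sequestosome-1 as its best Swiss-Prot match, and it was followed through every library of a UVC experiment. It was chosen by its row in the deposited table and is 1 of 14532 transcripts quantified there, with 1 isoform. A further transcript, g5512.t1, also has that match and is described beside it. Both names come from the tables in which the study listed transcripts that were higher after exposure, so the choice of these transcripts is not independent of a rise.

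Sequestosome-1, also called p62 in mammals and Ref(2)P in Drosophila, is a receptor of selective autophagy. It binds ubiquitin on damaged or aggregated proteins and organelles and the ATG8/LC3 family on the growing autophagosome with a short motif, assembles into filaments, and is degraded together with its cargo in the lysosome. In mammals it also captures KEAP1, the adaptor that marks the transcription factor NRF2 for destruction, and its own gene is among the targets of NRF2. None of these roles was assayed here, where only transcript levels were measured.

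Active, hydrated animals of the strain YOKOZUNA-1 received 2.5 kJ/m2 of UVC and were kept in the dark at 22 °C until whole-body RNA was taken from pools of 30 animals. A Short time course ran hourly from 1 to 6 h and then to 9 and 12 h. A Long one began at 12 h and went on at 18, 24 and 36 h, with its last animals at 48 and 72 h, and each course had its own non-exposed animals. Each of the 16 groups had 3 libraries, 27 in the Short and 21 in the Long time course. No transgene, mutation or other agent was used, and the sources give neither the age nor the sex of the animals.

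The non-exposed animals of both courses were taken at 0 h, with none kept alongside, so the time since exposure and the time in the culture dish cannot be told apart. Exposed animals of the Long course were given food at 12 h, and later Long time points cannot be told apart from feeding. Levels are TPM (reads assigned to a transcript, divided by its length and scaled to the same total in each library). A whole-body level cannot separate fewer expressing cells from less RNA per cell. TPM does not keep the sequencing depth, and no counting interval can be given. As a sign of uneven libraries, 7238 transcripts had a mean of at least 20 TPM, and between 8 and 792 of them were listed at 0 in a library (median 31.5). The highest numbers were in replicate 1 of Long 24 h and replicate 3 of Short 4 h (386), and the Long non-exposed libraries had 163 to 255. Where leaving out one of these libraries changed a call or the sign of g422.t1, the value without it is given.

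In non-exposed animals g422.t1 was already an abundant transcript. Its 3 libraries of the Short course held 584, 539 and 537 TPM before exposure, a mean of 554 ± 26.5 (SD, n = 3). The Long non-exposed libraries had 675, 536 and 624 TPM, with a mean of 612 ± 70.4. These ranges overlapped, and the difference between the courses was 0.14 on the log2(TPM + 1) scale (SE 0.23, adjusted p = 0.802, limma), a contrast in which 1.73% of all transcripts were called. Among all transcripts of a library g422.t1 held the places 259 to 314 in Short and 188 to 235 in Long non-exposed animals, counted from the most abundant. It was listed at 0 in 0 of the 48 libraries, and its lowest value was 510.4 TPM.

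In the first hour after UVC the level did not move beyond the spread of the libraries. At 1 h the libraries had 557, 512 and 591 TPM (mean 553 ± 39.6), on either side of the non-exposed range, while 5.54% of all transcripts had every 1 h library above it. The log2 fold change was -0.002 (95% interval -0.37 to 0.36, adjusted p = 1), and 0.223% of all transcripts tested were called higher. At this time point the median of all transcripts tested lay at -0.28, and with libraries scaled to a common median g422.t1 stood at 0.30, not called.

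At 2 h the values were higher, with 925, 757 and 826 TPM (mean 836 ± 84.7). At 3 h they were 639, 785 and 766 TPM (mean 730 ± 79.6). At both times all libraries lay above all non-exposed libraries, as did those of 7.12% of the transcripts tested at 2 h and 6.64% at 3 h. The log2 fold changes of 0.59 (adjusted p = 0.129, 0.513% of transcripts called higher) and 0.39 (adjusted p = 0.313, 0.314% called higher) did not pass the test, which asked for an adjusted p under 0.05 together with a log2 fold change beyond 1 in either direction. At 4 h the libraries had 979.9, 1139.6 and 786 TPM (mean 969 ± 177), all above the non-exposed libraries as for 7.11% of transcripts, a log2 fold change of 0.79 that met the threshold on p (adjusted p = 0.0181) but not that on the fold (0.753% of transcripts were called higher). Replicate 3, the lowest of these, is the library with 386 abundant transcripts listed at 0, and without it the 4 h value was 0.93.

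From 5 h onward g422.t1 was called higher at every Short time point. At 5 h the libraries had 1173, 1210.5 and 1003 TPM (mean 1129 ± 110.4), which put the log2 fold change at 1.02 (SE 0.17, adjusted p = 0.00189). Of all transcripts tested, 1.22% were called higher at 5 h, and 6.39% had every library above the non-exposed ones, as g422.t1 did. This value was at the edge of the fold threshold, and it fell under it without replicate 1 (0.99) or replicate 2 (0.97) of 5 h. With only the 5 h and non-exposed libraries in the fit the adjusted p was 0.102.

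At 6 h the libraries had 1272, 1895 and 1036 TPM (mean 1401 ± 444), the most uneven of the Short groups. The log2 fold change was 1.29 (SE 0.17, adjusted p = 0.000136), where 1.41% of all transcripts were called higher. In a fit of the 6 h and non-exposed libraries alone the adjusted p was 0.122. All 3 libraries nevertheless lay above all non-exposed libraries, which held for 8.42% of the transcripts.

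The highest levels came at 9 and 12 h. At 9 h the libraries had 1928, 1937 and 1939 TPM, a mean of 1935 ± 5.60 with almost no spread. At 12 h they had 1975, 2159 and 2204 TPM (mean 2113 ± 121). Every library of both times was above every non-exposed one, as for 15.2% of all transcripts at 9 h and 11.9% at 12 h. The mean TPM was 3.49 times that of non-exposed animals at 9 h and 3.82 times at 12 h.

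The log2 fold change was 1.80 at 9 h (95% interval 1.44 to 2.17, adjusted p = 2.56e-06) and 1.93 at 12 h (95% interval 1.57 to 2.29, adjusted p = 9.98e-07). Called higher were 2.31% of all transcripts at 9 h and 1.75% at 12 h. By then g422.t1 was between the places 31 and 39 of its libraries. The gain of 1559 TPM at 12 h was the 5th largest of the 12088 transcripts tested and the 2nd largest of the 212 called higher, while by log2 fold change it was only the 52nd of those 212.

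**Figure D1:**
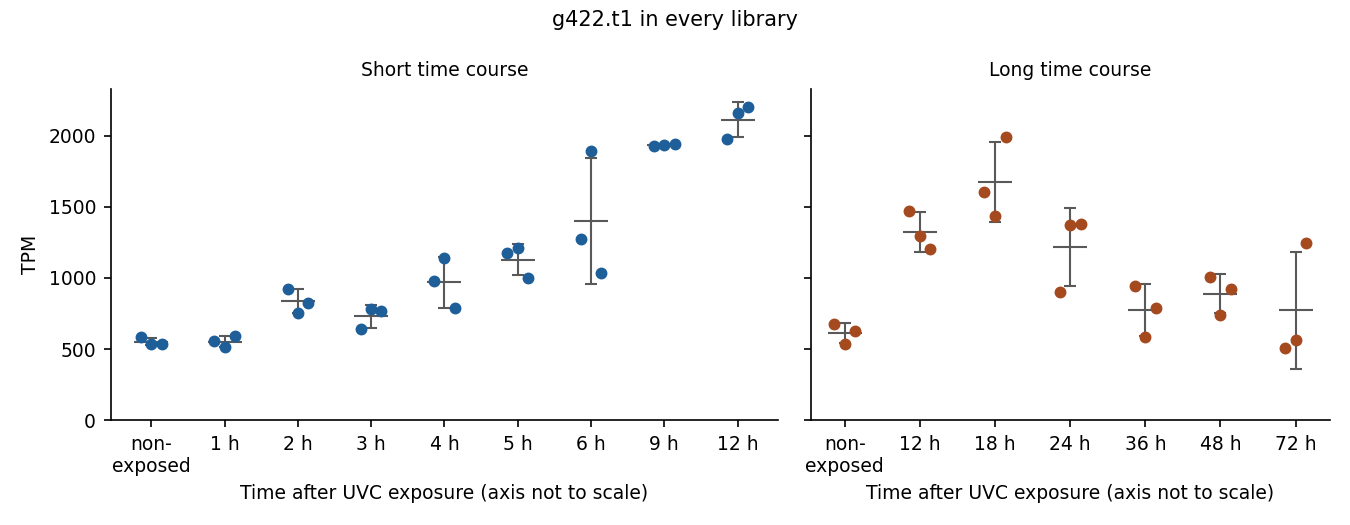
TPM of g422.t1 (vertical axis, linear, from 0) in each of the 48 libraries (points) by group, with the mean and SD of 3 libraries (horizontal marks and bars). The Short libraries climbed from 537 to 584 TPM in non-exposed animals to 1975 to 2204 TPM at 12 h, and the Long libraries were highest at 18 h (1437 to 1988 TPM).

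The climb over the Short time course was spread over many small steps. Between neighbouring time points the largest log2 differences were 0.59 from 1 to 2 h (unadjusted p = 0.00271, adjusted p = 0.307) and 0.51 from 6 to 9 h (unadjusted p = 0.00797, adjusted p = 0.673). None of the 7 steps passed the test in limma for g422.t1. In either direction 0.0579% of all transcripts were called from 1 to 2 h, 0.0331% from 3 to 4 h, 0.091% from 4 to 5 h, 0.0414% from 5 to 6 h and 0 at the other steps. For g422.t1 from 2 to 3 h the value was -0.20 (unadjusted p = 0.274). From 9 to 12 h the difference was 0.13 (95% interval -0.24 to 0.49). Over the whole course, 22 of 24 exposed libraries lay above all 3 non-exposed ones, and the exposed mean was 0.98 higher on the log2 scale (exact permutation test over libraries, two-sided, p = 0.00752, adjusted over 4 such tests 0.0301). That test takes the exposed libraries as independent. They came from several time points and, by the study's methods, from repeated sampling of exposed animals, so its p is only a description. For the count of 22 of 24 libraries, the share of all transcripts was not computed.

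In the Long time course the level was raised at 12 to 24 h and lower again afterwards. At 12 h the libraries had 1473, 1294 and 1202 TPM (mean 1323 ± 138), 2.16 times the non-exposed mean. All lay above the non-exposed libraries, as did those of 8.22% of all transcripts. The log2 fold change of 1.11 (SE 0.29, 95% interval 0.50 to 1.72) did not pass the test (adjusted p = 0.0856), at a time point where 0.546% of all transcripts were called higher. It passed without replicate 1 of Long 24 h (adjusted p = 0.0402) or replicate 3 of Long 72 h (adjusted p = 0.0331), and in a fit of all 16 groups (adjusted p = 0.00453).

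At 18 h g422.t1 had its highest Long values, with 1603, 1437 and 1988 TPM (mean 1676 ± 283), all above the non-exposed libraries as for 10.2% of all transcripts. It was called higher at this time point of the Long time course only, by 1.44 on the log2 scale (SE 0.29, 95% interval 0.83 to 2.06, adjusted p = 0.0288), where 0.521% of all transcripts were called higher. Its gain of 1064 TPM was the 11th largest of the 12088 transcripts tested and the largest of the 63 called higher there. By log2 fold change it was the 55th of those 63. In its libraries it held the places 41 to 58.

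The call at 18 h was kept in 16 of the 21 fits that each left out 1 library. It was lost without replicate 2 (adjusted p = 0.0728) or replicate 3 (adjusted p = 0.0502) of the Long non-exposed animals. It was also lost without replicate 1 (adjusted p = 0.0808), 2 (adjusted p = 0.0640) or 3 (adjusted p = 0.109) of Long 18 h itself, with log2 fold changes between 1.32 and 1.55. With only those 2 groups in the fit the adjusted p was 0.0832.

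At 24 h the libraries had 901, 1373 and 1377 TPM (mean 1217 ± 273). The lowest of them, replicate 1, is the library with 792 abundant transcripts listed at 0. The log2 fold change was 0.97 (adjusted p = 0.174, 0.149% of transcripts called higher), and 1.17 without that library. All 3 libraries still lay above the non-exposed ones, as in 5.01% of the transcripts tested.

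At 36 h 2 of 3 libraries were above all non-exposed ones, with 947, 584 and 788 TPM (mean 773 ± 182), where all 3 were above in 10.3% of transcripts. At 48 h the libraries had 1004, 743 and 926 TPM (mean 891 ± 134), all above the non-exposed libraries, as for 11.5% of all transcripts. At 72 h they had 510.4, 564 and 1243 TPM (mean 772 ± 409), so 2 libraries were within or below the non-exposed range and replicate 3 was far above it, while 10.3% of all transcripts had all 3 above. The log2 fold changes were 0.32 (adjusted p = 0.627), 0.54 (adjusted p = 0.291) and 0.22 (95% interval -0.39 to 0.83, adjusted p = 0.683), none of them called, where 0.811%, 1.4% and 2.12% of all transcripts were called higher. Without replicate 3 the value at 72 h was -0.18.

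The later fall was not called either. Against Long 12 h the log2 difference was -0.14 at 24 h, -0.80 at 36 h (adjusted p = 0.224), -0.58 at 48 h (adjusted p = 0.278) and -0.89 at 72 h (95% interval -1.50 to -0.28, adjusted p = 0.0605). Against Long 12 h 0.0248% of all transcripts were called lower at 36 h, 1.4% at 48 h and 6.99% at 72 h. At 24 h it turned to 0.06 without replicate 1 of Long 24 h, and at 72 h it became -1.30 and passed without replicate 3 of Long 72 h (adjusted p = 0.00638). The step from 24 to 36 h was the largest between neighbours (-0.65, unadjusted p = 0.0374, adjusted p = 0.3003), where 0.116% of all transcripts were called in either direction. Without replicate 1 of Long 24 h this step was -0.86. Over the Long time course, 15 of 18 exposed libraries lay above all non-exposed ones. The share of all transcripts for which this held was not computed. The exposed mean was 0.77 higher on the log2 scale (exact permutation test, two-sided, p = 0.0346, adjusted over 4 tests 0.0692), and p was 0.0842, 0.137 and 0.0842 without Long non-exposed replicates 1, 2 and 3. Here too the exposed libraries of several time points were taken as independent, and p is only a description.

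Animals at 12 h were sampled in both time courses, and the change of g422.t1 was smaller in the Long one. The Short 12 h libraries had 1975 to 2204 TPM and the Long 12 h libraries 1202 to 1473 TPM. The Long change minus the Short change was -0.82 (SE 0.33, 95% interval -1.48 to -0.15), with an unadjusted p of 0.0176 and an adjusted p of 0.582, and 0.0414% of all transcripts were called. The difference between the courses at 12 h was therefore not called.

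In the order of the 16 group means, Short 12 h was highest, followed by Short 9 h, Long 18 h, Short 6 h, Long 12 h, Long 24 h, Short 5 h, Short 4 h, Long 48 h, Short 2 h, Long 36 h, Long 72 h, Short 3 h, Long non-exposed, Short non-exposed and Short 1 h. Only the first of the 15 neighbouring pairs was apart, meaning that the means differed by more than the larger SD and the ranges did not overlap. The other 14 pairs did not differ beyond their spread. The libraries of a group agreed well in the Short time course, with an SD of 0.20 on the log2 scale, and 82.6% of the 247 transcripts within 2-fold of its mean level were more variable. In the Long time course the SD was 0.36, and 53.3% of 255 such transcripts were more variable.

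**Figure D2:**
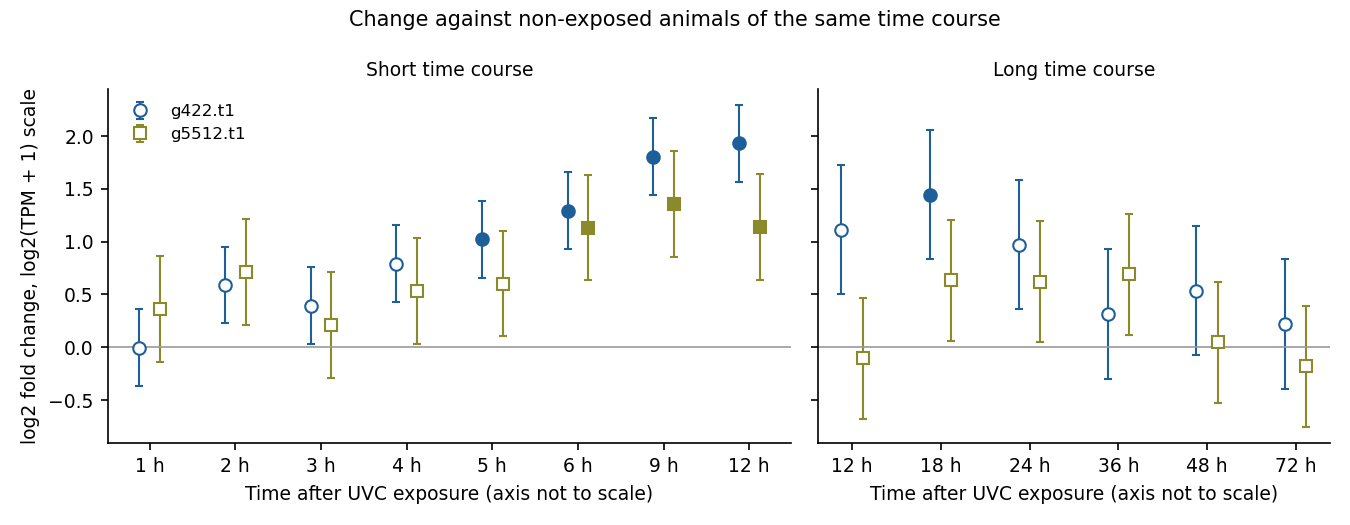
Log2 fold change against non-exposed animals of the same time course (limma, log2(TPM + 1) scale) for g422.t1 (circles) and g5512.t1 (squares), with 95% intervals; filled symbols were called. For g422.t1 the circles are filled at 5, 6, 9 and 12 h of the Short and at 18 h of the Long time course, and for g5512.t1 the squares are filled at Short 6, 9 and 12 h.

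The other sequestosome-1 match, g5512.t1, was less abundant. Its log2 fold change was the smaller of the pair at Short 3 to 12 h and at 5 of 6 Long time points, and the larger at Short 1 and 2 h and at Long 36 h (0.69 against 0.32). Whether the 2 transcripts share sequence, and so reads, could not be examined with the data used here. In Short non-exposed animals its libraries had 507, 348 and 292 TPM (mean 382 ± 112), and in Long non-exposed animals 349, 258 and 264 TPM (mean 290.4 ± 51.1). TPM is per length, and on that scale g422.t1 was the higher of the pair in 47 of 48 libraries.

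In the Short time course g5512.t1 was called higher at 6, 9 and 12 h, where 1.41%, 2.31% and 1.75% of all transcripts were called higher. The libraries had 798, 1019 and 673 TPM at 6 h, 756, 1057 and 1083 TPM at 9 h, and 749, 713 and 1032 TPM at 12 h. At each of these times all 3 libraries lay above the highest non-exposed library (507 TPM), as did those of 8.42%, 15.2% and 11.9% of all transcripts. At 9 h the log2 fold change was 1.35 (SE 0.24, adjusted p = 0.00193). All 3 calls were lost when only the compared groups were fitted (adjusted p = 0.176, 0.0668 and 0.107).

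At 6 h the log2 fold change of g5512.t1 was 1.13 (adjusted p = 0.00914), and at 12 h it was 1.14 (adjusted p = 0.00782). Both fell under the fold threshold without Short non-exposed replicate 3 (0.96 and 0.96). The same happened at 6 h without its replicate 2 (0.98, adjusted p = 0.0528) and at 12 h without its replicate 3 (0.97, adjusted p = 0.0620). From 1 to 5 h the log2 fold changes ranged from 0.21 at 3 h to 0.71 at 2 h (lowest adjusted p 0.177), and none was called.

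In the Long time course g5512.t1 was called at none of the 6 time points (limma, of which 3 had an unadjusted p under 0.05). At 12 h, when g422.t1 was above its non-exposed range, g5512.t1 had 251, 232 and 328 TPM (log2 fold change -0.11, 95% interval -0.68 to 0.47). Replicates 1 and 2 lay below its own non-exposed range (258 to 349 TPM) and replicate 3 within it. At 18 h it had 715, 316 and 395 TPM (0.63, adjusted p = 0.306), at 24 h the value was 0.62 (adjusted p = 0.376) and at 36 h it was 0.69 (adjusted p = 0.194). At 72 h the libraries had 252, 207 and 313 TPM (-0.18). The Long change at 12 h minus the Short change was -1.24 (SE 0.36, unadjusted p = 0.00156, adjusted p = 0.334), again not called.

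The ratio of g422.t1 to g5512.t1 within a library describes how unevenly the pair moved. It was 1.51 ± 0.35 in Short non-exposed libraries and 2.60 ± 0.45 at Short 12 h. It was 2.13 ± 0.22 in Long non-exposed libraries, then 5.04 ± 1.20 at 12 h of that course, with 5.87, 5.58 and 3.66 in its libraries, and 3.94 ± 1.49 at 18 h. The Long 12 h ratios all lay above the Long non-exposed ratios (1.93 to 2.36).

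At Long 36 h the ratio was 1.73 ± 0.73 (1.18 to 2.56), with a mean under the 2.13 of Long non-exposed libraries. It was 2.99 ± 0.38 (2.58 to 3.33) at Long 48 h and 2.91 ± 0.98 (2.03 to 3.97) at Long 72 h. Exposed against non-exposed libraries, the mean log2 ratio differed by 0.22 in the Short (exact permutation test, p = 0.395) and by 0.48 in the Long time course (exact permutation test, p = 0.214). Neither difference passed this test, in which the spread includes changes between time points. The log2 ratio lay above all non-exposed values in 9 of 24 exposed Short and 14 of 18 exposed Long libraries.

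**Figure D3:**
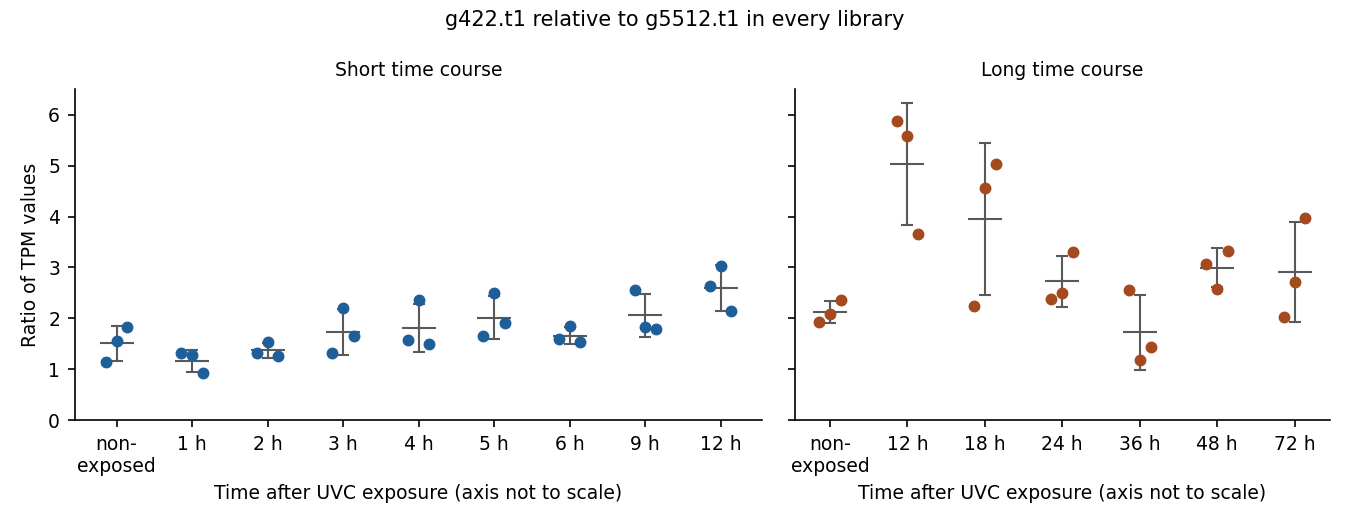
Ratio of the TPM of g422.t1 to that of g5512.t1 (vertical axis, linear, from 0) in each library (points), with the mean and SD of 3 libraries. Short libraries lay between 0.92 and 3.03, and the highest ratios (3.66 to 5.87) were those of Long 12 h, with 2.24 to 5.04 at Long 18 h.

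Proteins of the pathways around sequestosome-1 were examined in 5 lists built from the same tables of named transcripts. Since those tables hold only transcripts that the study called higher after exposure, the direction of a list is not independent evidence, and the counts describe which members moved and when. For reference, 3.57% of all transcripts tested were called higher at any Short time point and 3.04% at any Long one. No member of any list was called lower at any time, which the choice of the tables made likely. Of the 12088 transcripts tested, 138 were called lower at Short 12 h, 15 at Long 18 h and 1031 at Long 72 h. The medians over all transcripts tested were 0 at Short 12 h and 0.07 at Long 18 h on the log2 scale.

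Ubiquitin is the mark that sequestosome-1 reads, and the list of ubiquitin and its enzymes had 17 members. Of these, 7 rose at Short 12 h and 2 at Long 18 h, where 1.75% and 0.521% of all transcripts were called higher, and 9 rose at any Short time point. The median log2 fold change was 1.18 at Short 12 h and 0.83 at Long 18 h. Polyubiquitin (g1328.t1), the source of free ubiquitin, was called at every Short time point from 2 h on, against 5 h on for g422.t1. It went from 759 ± 114 TPM before exposure to 2046 ± 139 TPM at 12 h of the Short course (log2 fold change 1.44, adjusted p = 6.62e-05). At Long 18 h its log2 fold change was 0.44 (adjusted p = 0.437).

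The largest change of this list at Short 12 h was that of a match to the E3 ligase RNF146 (g11088.t1), with 1.90 (adjusted p = 0.00127). A match to ARIH1 (g2446.t1), an E3 ligase with a role in mitophagy in mammals, rose from 53.7 ± 5.92 to 149 ± 9.03 TPM (1.46, adjusted p = 2.33e-05). The deubiquitinase USP14 (g13012.t1), which trims ubiquitin chains at the proteasome, was called from 6 h on in the Short course and at its earliest 2 times in the Long one. It had the largest change of the list at Long 18 h, from 71.2, 79.4 and 29.5 TPM in non-exposed libraries to 183, 226 and 236 TPM (1.94, adjusted p = 0.0139). The match to the ubiquitin-conjugating enzyme E2 L3 (g5471.t1) was called in the Long time course only, at 12 and 18 h (1.86 at 18 h, adjusted p = 0.0186). The 7 calls at Short 12 h became 4 with only the compared groups in the fit. The 2 at Long 18 h became 1, 0 and 1 without replicates 1, 2 and 3 of Long 18 h, and 4 without replicate 1 of Long 24 h.

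The proteasome is the other route by which ubiquitinated proteins are degraded, and its list also held p97 cofactors and the proteins that release the transcription factor NFE2L1, which in mammals drives proteasome genes. At Short 12 h 7 of its 11 members rose (median 1.07), and 10 of 11 were called at some Short time point. At Long 18 h 0 of 11 passed the test in limma, where 5 had an unadjusted p under 0.05 (median 0.68). The match to the peptide N-glycanase NGLY1 (g12708.t1), which acts on NFE2L1 in mammals and other animals, went from 245 ± 42.0 to 1379 ± 405 TPM at Short 12 h (2.45, adjusted p = 7.66e-06). The match to DDI2 (g6882.t1), the protease that cleaves NFE2L1 in mammals, rose by 1.07 (adjusted p = 0.0427). Those to the 26S regulatory subunit 4 (g3560.t1) and the assembly factor POMP (g569.t1) rose by 1.07 (adjusted p = 0.000814) and 1.31 (adjusted p = 0.0297).

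At Long 18 h POMP had the largest value of the proteasome list (1.30, adjusted p = 0.108). The 7 calls at Short 12 h became 4 without replicate 1 or replicate 3 of Short 12 h, and also with only the compared groups in the fit. The 10 over the Short time course became 6 when replicate 1 of the Short non-exposed animals was left out and 5 when replicate 2 or 3 was. The 0 at Long 18 h became 1 without Long non-exposed replicate 1 or Long 72 h replicate 3, and 2 without Long 24 h replicate 1.

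Of the 9 members of the autophagy and lysosome list, 3 rose at Short 12 h (median 0.89). At Long 18 h 0 passed the test in limma and 6 had an unadjusted p under 0.05 (median 1.08). The match to WIPI, the WD-repeat protein that binds the membrane of the forming autophagosome (g9408.t1), was called at Short 5, 6, 9 and 12 h and at Long 12 h, as g422.t1 was at the first 4 of these. It rose from 55.9 ± 16.3 to 129 ± 21.8 TPM at Short 12 h (1.21, adjusted p = 0.00153).

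A match to the ATG1 kinase family, which starts autophagy (g12306.t1), rose at Short 12 h (1.27, adjusted p = 0.0257), from 21.1 ± 6.21 to 51.4 ± 7.71 TPM. The largest change of the autophagy and lysosome list there was that of the ESCRT subunit VPS25 (g8907.t1, 2.30, adjusted p = 0.0279). Its non-exposed level of 18.9 ± 23.7 TPM was the most uneven of the list. The largest at Long 18 h was that of the V-ATPase subunit F, part of the pump that acidifies lysosomes (g5667.t1, 1.54, adjusted p = 0.145), which was called at Long 48 and 72 h. The 3 calls at Short 12 h became 0 with only the compared groups in the fit, and 1 without replicate 1 or 2 of Short non-exposed or without any 1 of the 3 Short 12 h libraries. The 0 at Long 18 h became 1 without Long non-exposed replicate 3 or Long 24 h replicate 3, and 3 without Long 24 h replicate 1.

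KEAP1, the mammalian partner of sequestosome-1, had 1 match (g9232.t1), which was called at no time. Its level was 34.2 ± 9.42 TPM before exposure and 49.3 ± 9.25 TPM at Short 12 h (0.53, adjusted p = 0.487). Its largest value was 1.09 at Short 9 h (72.9 ± 11.8 TPM, adjusted p = 0.0632). At Long 48 and 72 h it was -0.95 (adjusted p = 0.0322) and -0.92 (adjusted p = 0.0237), past the threshold on p and not that on the fold. Around it, the 14-member list of KEAP1, the thioredoxin system and Cu-Zn superoxide dismutases had 2 members higher at Short 12 h (median 0.61). These were a thioredoxin (g11519.t1, 1.05, adjusted p = 0.0187) and a thioredoxin domain protein (g11396.t1, 1.71, adjusted p = 3.15e-05). The latter was called at 2 h, at 4 h and at every later Short time point, so its first call came before that of g422.t1.

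In the Long time course the calls of this redox list came at 36 h and later. Peroxiredoxin-2 (g6996.t1), thioredoxin-like protein 1 (g7593.t1) and a superoxide dismutase (g456.t1), proteins of antioxidant or thiol-redox function, were the 3 members called, each at 36, 48 and 72 h, and 5 were called at any Long time point without replicate 1 of 24 h. By 18 h 0 of 14 passed the test in limma and 4 had an unadjusted p under 0.05. The largest values were those of a thioredoxin reductase isoform at Short 12 h (g4356.t2, 2.40, adjusted p = 0.437), which shares its gene with another isoform in the table, and of a superoxide dismutase at Long 18 h (g10526.t1, 1.57, adjusted p = 0.554). The 2 calls at Short 12 h became 1 without replicate 1 or 2 of Short non-exposed or replicate 1 or 3 of Short 12 h, and the 0 at Long 18 h became 1 without Long 24 h replicate 1.

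Of 7 chaperones, which refold the proteins that would otherwise be degraded, 2 rose at Short 12 h (median 0.51) and 1 at Long 18 h (median 1.19). The AAA protein BCS1 of the inner mitochondrial membrane (g2185.t1) was called from Short 2 h on and had the largest change of any listed transcript at Short 12 h, from 88.2 ± 37.4 to 1049 ± 357 TPM (3.60, adjusted p = 1.25e-06). It was also the only member called at Long 18 h (1.69, adjusted p = 0.0131). A DnaJ protein (g4452.t1) was called at Short 12 h (1.07, adjusted p = 0.0122). The HSP70 match (g13851.t1) had 106 ± 17.6 TPM before exposure and 91.5 ± 9.34 TPM at Short 12 h, and it was called at Long 72 h only, where it rose from 84.6 ± 22.7 to 202 ± 74.5 TPM (1.21, adjusted p = 0.0335). The mitochondrial GrpE match (g7489.t1), which had the largest value at Long 18 h, did not pass the test there (2.23, adjusted p = 0.358). The 2 calls became 1 without replicate 1 or 3 of Short 12 h, and the 1 at Long 18 h became 0 without its replicate 2 or 3 and 3 without Long 24 h replicate 1.

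**Figure D4:**
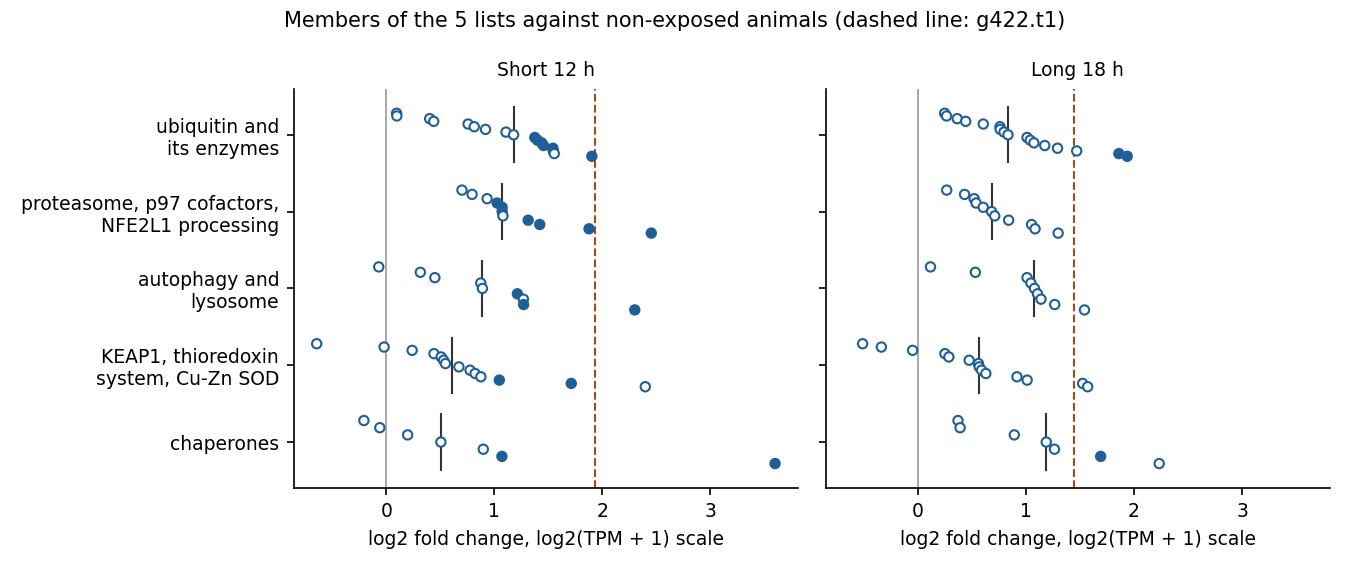
Log2 fold change (horizontal axis, log2(TPM + 1) scale, limma) of every member of the 5 lists at Short 12 h and Long 18 h against non-exposed animals; filled points were called, vertical bars are list medians, and the dashed line is g422.t1 (1.93 and 1.44). At Short 12 h the medians ran from 0.51 (chaperones) to 1.18 (ubiquitin and its enzymes).

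The transcripts whose profile was most like that of g422.t1 were found by Pearson's correlation of log2(TPM + 1) over the 16 group means, among 12087 other transcripts. These values are a description: the 16 points come from 2 time courses and include the rise after exposure. The median r of all transcripts was 0.14. A total of 27 transcripts had an r over 0.9. The first was a match to the mitochondrial cysteine desulfurase (g6954.t1, r = 0.96), the enzyme that supplies sulfur for iron-sulfur clusters. It rose from 61.2 to 158 TPM at Short 12 h and from 59.3 to 179 TPM at Long 18 h.

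Second came SelO-1 (g5548.t1, r = 0.95), a mitochondrial pseudokinase that attaches AMP to proteins, with 72.7 TPM in Short non-exposed animals, 403 at Short 12 h and 421 at Long 18 h. The kinase RIO3 (g3476.t1, r = 0.95), a putative glycerol kinase (g6843.t1, r = 0.94) and reticulon-4 (g2943.t1, r = 0.93), a shaper of the endoplasmic reticulum, followed. Of the 10, reticulon-4 had the level nearest to that of g422.t1, with 429 TPM in Short non-exposed animals and 1383 at Short 12 h.

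The next were BCS1 (r = 0.93), g979.t1 (0.92), which has no name in the tables, the RNA ligase RtcB (g5473.t1, 0.92), which in animals rejoins tRNA and XBP1 RNA, growth hormone-inducible transmembrane protein (g13195.t1, 0.92) and the unnamed g9523.t1 (0.92). At Long 72 h the mean log2(TPM + 1) of these 10 differed by -0.45 to 0.43 from that of Long non-exposed animals, with TPM means of 250.4 against 222 for g13195.t1 and 503 against 442 for reticulon-4. Among individual libraries in place of group means the r of these 10 lay between 0.81 and 0.92.

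The other sequestosome-1 match was not among them: g5512.t1 had an r of 0.57 with g422.t1 and the 982nd place. By list, the median r was 0.80 for the proteasome, p97 cofactors and NFE2L1 processing (0.64 to 0.91) and 0.72 for ubiquitin and its enzymes. It was 0.67 for autophagy and lysosome, 0.40 for chaperones and 0.26 for KEAP1, the thioredoxin system and Cu-Zn superoxide dismutases. List members, like g422.t1, came from tables of transcripts higher after exposure, so a positive r is not independent evidence.

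**Figure D5:**
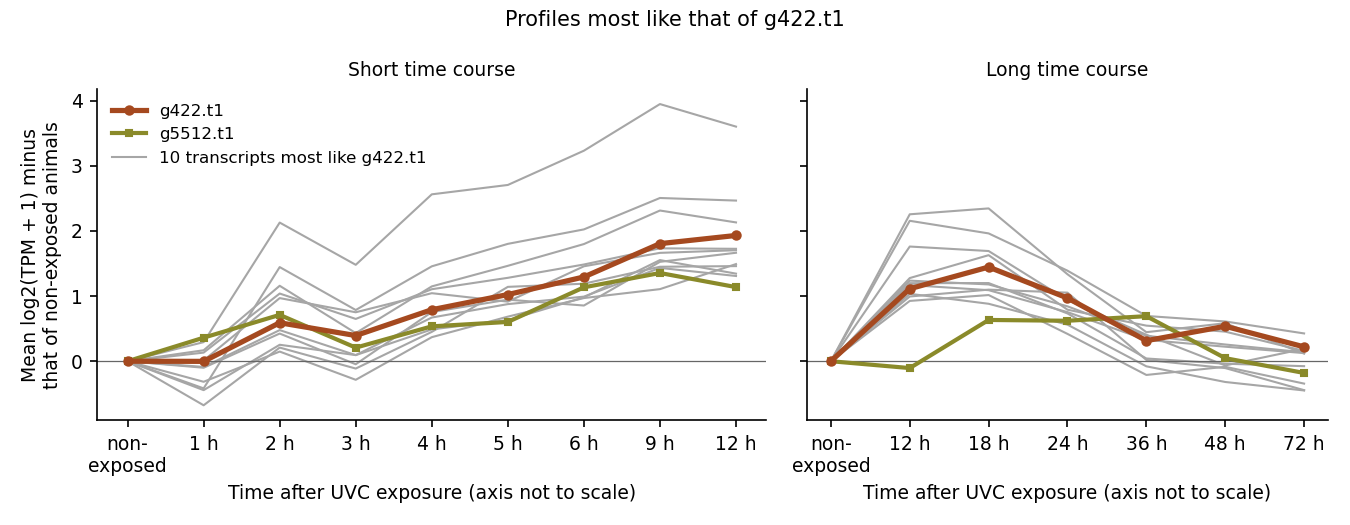
Mean log2(TPM + 1) minus that of non-exposed animals of the same time course (vertical axis) by group, for g422.t1 (thick line with circles), g5512.t1 (line with squares) and the 10 transcripts most like g422.t1 (thin lines). g422.t1 reached 1.93 at Short 12 h and 1.44 at Long 18 h, while g5512.t1 stood at 1.14 and 0.63.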

How the data were processed

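Whole-body mRNA libraries (75-base single-end reads) were grouped by the sample labels; replicates are separate pools of animals, and the study kept libraries by RNA quality. The authors quantified reads with kallisto 0.44.0 (bias correction) against their gene set and deposited TPM without pooling or filtering. The authors' own counts, from BWA and tested with DESeq2 per the labels, are not used here, so limma on log2 values takes their place.

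Each of the 48 columns was assigned to a sample through its name, with 0 unassigned. log2(TPM + 1) was fitted with limma 3.58.1 in R 4.3.3 (eBayes with a trend, all groups of a time course) for 12088 transcripts with a mean of at least 1 TPM, adjusted by Benjamini-Hochberg within each comparison. Fold changes are on this log2 scale, which understates low transcripts. In data simulated with 200 transcripts changed by 2 on the log2 scale, 101 were recovered at Short 12 h with 0 false calls, and 70 at Long 18 h with 2. The transcript and the lists were chosen with earlier results of these data known. Named were g422.t1, g5512.t1, examples of the list members called at any time, the largest of each list at Short 12 h and Long 18 h, and the 10 closest profiles; KEAP1 was named for its role. Long 18 h is in the labels but not among the time points of the study's methods. Alternatives were other pseudocounts, filters, scalings, fits, a replicate block and leaving out each library. No coordinates or sequences were used.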

Additional observations from a re-analysis of the deposited data

How the results depend on the processing

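The calls of g422.t1 at Short 9 and 12 h held under every alternative run (largest adjusted p 0.0171 and 0.0148), with log2 fold changes of 1.67 to 1.89 and 1.91 to 1.95. With only the compared groups in the fit, 5 h (1.02), 6 h (1.29) and Long 18 h (1.44) were no longer called for g422.t1, nor were 6, 9 and 12 h for g5512.t1 (1.13, 1.35 and 1.14, adjusted p = 0.176, 0.0668 and 0.107). That fit has 6 libraries, and in limma it called 0 of all transcripts at 6 time points (581 to 2408 with an unadjusted p under 0.05). Long 12 h (1.11) was called with all 16 groups in the fit and with adjustment over the time course (adjusted p = 0.0485).

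Median scaling turned Short 1 h of g422.t1 to 0.295 and Long 72 h of g5512.t1 to 0.064. Quantile normalization turned Long 72 h of g422.t1 to -0.069 and Long 48 h of g5512.t1 to -0.017, and made Long 72 h against 12 h -1.18 (adjusted p = 0.0381). The cause was not tested.

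Over the left-out libraries g422.t1 ranged from -0.051 to 0.052 at Short 1 h, 0.971 to 1.11 at 5 h, 1.02 to 1.19 at Long 12 h, 1.32 to 1.55 at 18 h, -0.184 to 0.458 at 72 h, -0.245 to 0.061 for 24 against 12 h, -1.30 to -0.655 for 72 against 12 h and 0.675 to 0.841 for all exposed Long libraries. g5512.t1 ranged from 0.960 to 1.36 at Short 6 h, 0.963 to 1.36 at 12 h, -0.252 to 0.034 at Long 12 h and -0.031 to 0.187 at 48 h.

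Counts of all transcripts called moved with the fit, at Short 12 h from 350 to 175 (only 2 groups) and at Long 18 h from 78 to 0 (only 2 groups) or 419 (all groups). At Long 18 h the lists had up to 5 (ubiquitin), 3 (proteasome), 4 (autophagy) and 3 (chaperones) members called with all groups. With only the compared groups the Short 12 h counts fell to 4 (ubiquitin), 4 (proteasome), 0 (autophagy) and 1 (redox). The counts of all transcripts called in either direction also moved when 1 library was left out, at Long 18 h to 17 (without its replicate 2) or 367 (without Long 24 h replicate 1), at Long 36 h from 168 to 25 (its replicate 2) or 568 (Long 24 h replicate 1) and at Short 1 h from 140 to 23 (its replicate 1) or 264 (Short 5 h replicate 2). Of the 10 closest profiles, 5 were kept with Spearman's correlation, 7 over 48 libraries and 7 without Long 24 h replicate 1.

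Same-numbered libraries of exposed and non-exposed groups deviated together in 0 of 14 comparisons (correlations from -0.15 to 0.12). Pairing among exposed time points, which by the study's methods were sampled in turn, was not tested. With a replicate block Short 12 h stayed at 1.93 and Long 18 h at 1.44 (adjusted p = 0.0286), and no call of g422.t1 or g5512.t1 changed.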
